A study of Mus musculus with 4 samples.

Results

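The cytosolic ribosomal protein genes encode the protein parts of the ribosome that works outside mitochondria. They were taken as every row whose symbol was Rpl or Rps followed by a number (with the endings a, x, y or l allowed), together with Rpsa, Rplp0, Rplp1, Rplp2 and Fau, and without pseudogene symbols. Such a symbol was found for 86 of the 24100 genes counted, and 82 reached at least 10 counts in at least 1 library. These 82 comprised 48 genes of the large subunit and 34 of the small subunit, and all 82 were among the 14636 genes tested. They lie on 20 chromosomes, with 4 genes on X. The 4 genes left out were Rpl26 (3, 2 and 2 counts in IP 1, 2 and 3, against 3 in the Input), Rpl3l (5, 0 and 0 counts, against 5 in the Input), and Rpl39l and Rpl10l, with 0 counts in every library. Of the 50-base stretches of the Rpl26 transcript 71.3% also occur in another annotated gene, and whether this lowered its counts was not tested. The gene just inside the limit was Rpl36, with 42, 42 and 62 counts in IP 1, 2 and 3, against 72 in the Input.

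Messenger RNA was profiled by translating ribosome affinity purification (TRAP), in which ribosomes that carry a tagged protein are pulled from a tissue homogenate with the RNA they hold. The IP group was 3 libraries of RNA from EGFP-tagged polysomes, captured with antibodies against EGFP from the prefrontal cortex of adult males of the line Crh-IRES-Cre (Jackson 012704). The Input group was 1 library from the prefrontal cortex of male mice of the same line, and it carries the same Cre allele. Each library was made from 5 males, no animal was treated, and in this line Cre is made wherever the Crh locus is active. How the EGFP tag was brought into the cells, and whether the Input came from the animals of an IP library, was not given in the labels. Nothing says that the IP libraries came from separate animals. The p-values rest on the variation among the 3 IP libraries, part of which may be technical, and the lone Input was taken to vary alike.

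A cytosolic ribosome is built from a small subunit, which reads the messenger RNA, and a large subunit, which joins the amino acids. Each ribosomal protein is usually present in a single copy per ribosome, so the genes are made at matched levels, and cells spend much of their transcription on them. Their messenger RNAs are short and begin with a run of pyrimidines right after the cap, the terminal oligopyrimidine (TOP) tract, through which mTORC1 and LARP1 control how many of them are on polysomes. In resting cells a part of these messages is kept off ribosomes, so a level on captured ribosomes and a level in total RNA are different quantities.

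The libraries held 23548375, 10031072 and 12150980 counts in IP 1, 2 and 3, and 14474529 counts in the Input. Values below are CPM (counts scaled to library size with TMM factors), unless a share of library counts is named, and IP means carry the SD over 3 libraries. The marker genes of the Vip class of interneurons (Vip, Tac2, Calb2, Crh, Htr3a and Prox1) summed to 5792, 3599 and 3602 CPM in IP 1, 2 and 3, against 72.6 CPM in the Input, and 6 of 6 passed the test as higher. The 7 markers shared by GABAergic neurons summed to 4731, 3704 and 4431 CPM, against 787 CPM in the Input, and 5 of them passed as higher. Markers of other cells were also present in IP. The 7 excitatory markers summed to 3247, 6252 and 4964 CPM, against 4974 CPM in the Input, and the 8 astrocyte markers to 1728, 3071 and 1974 CPM, against 2854 CPM. IP 2 was above the Input in both sums. Gene by gene, 6 of the 7 excitatory markers had a log2 fold below 0 (median -1.16), 5 had all IP libraries below the Input and 1 passed the test as lower. All 8 astrocyte markers had a log2 fold below 0 (median -0.80), 6 had all IP libraries below the Input, and 0 passed the test by edgeR, with 0 at an unadjusted p under 0.05. The 8 endothelial markers summed to 134, 486 and 198 CPM in IP, against 36.5 CPM in the Input, and the 4 mural markers to 122, 341 and 186 CPM, against 70.5 CPM. The 8 microglial markers summed to 23.7, 25.4 and 37.0 CPM, against 91.7 CPM, and 1 of them had 0 counts in IP 1 and 2 in IP 2. IP 1 thus had the most of the Vip class and the least of the excitatory, astrocyte and endothelial markers among the IP libraries.

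The starts of these genes are shown first, since the tract that marks the class lies there. A start with position was listed by RefSeq (GRCm38.p6) for 61 of the 82 genes. A tract was searched on the transcribed strand as a C followed by at least 4 letters that were each C or T, beginning within 5 bases of a listed start. Of the 61 genes 31 (50.8%) held one, against 21.2% of the 27025 genes with a start listed by RefSeq. A tract beginning exactly at a listed start was found in 15 members (24.6%), against 3.01% of all genes. On the opposite strand the search found 9 members (14.8%), against 24.4% of all genes. The windows below run from 10 bases before the start to 20 bases from it on, with the tract in capitals.
The first 4 are members with a tract: Rps15a (chr7:118116128-118116157, minus strand), Rpl38 (chr11:114668570-114668599, plus strand), Rps6 (chr4:86857348-86857377, minus strand) and Fau (chr19:6057937-6057966, plus strand).
Rps15a: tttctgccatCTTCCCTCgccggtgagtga
Rpl38: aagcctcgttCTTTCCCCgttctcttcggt
Rps6: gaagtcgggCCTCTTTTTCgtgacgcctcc
Fau: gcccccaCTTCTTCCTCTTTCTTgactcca
The others are members whose listed starts held no such tract, shown because Rpl4 was the most abundant member and Rpl10a is the protein that carries EGFP in the TRAP method: Rpl4 (chr9:64173377-64173406, plus strand) and both starts of Rpl10a (chr17:28328461-28328490 and chr17:28328555-28328584, plus strand).
Rpl4: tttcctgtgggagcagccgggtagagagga
Rpl10a, first start: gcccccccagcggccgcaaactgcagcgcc
Rpl10a, second start: atttgagcgcatgcgcaaagcgctctgcct
No match says only that these letters are not in this window. The median log2 fold of IP over Input was 0.36 for the 31 members with a tract and 0.36 for the 30 without.

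Set against the Input, the IP libraries show which messages were higher or lower in the captured RNA. The mix of cells and the loading of ribosomes cannot be told apart in such a fold. No ribosomal protein gene passed the test: 0 of 82 members were called at an adjusted p under 0.05 by edgeR, against 0.458% of the 14636 genes tested (67 genes). No member had an unadjusted p under 0.05 in that fit, against 4.43% of all genes, and the smallest adjusted p was 0.99995. DESeq2 called 0 members, with 1 at an unadjusted p under 0.05, against 1.24% of all genes called, and 7 members had no adjusted p there. limma-voom called 0 members, with 0 at an unadjusted p under 0.05, against 0.348% of all genes called. In bulk libraries fewer cells of a type and less RNA per cell cannot be told apart, so none of the levels here is a level per cell.

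The folds of the family lay mostly above 0 and close together. The median log2 fold was 0.36 over the 82 members, 0.34 over the 48 large subunit genes and 0.40 over the 34 small subunit genes, against 0.083 over all genes tested. The middle 50% of members ran from 0.024 to 0.66, the lowest was Rpl21 at -0.45 and the highest Rps27a at 1.28. With TMM scaling 64 members lay above 0 and 18 below, and with library totals alone 47 lay above 0. That scaling moved the median of all genes to -0.19 and the median of the members to 0.087, so the members stood 0.28 above the median of all genes under either. A change of scaling shifts all folds nearly alike, so this difference could hardly have changed. That excess was 0.47 by limma-voom, 0.16 without IP 1 and 0.17 among genes averaging 5 CPM or more. Taken library by library, the median log2 ratio to the Input was 0.44, 0.23 and 0.13 in IP 1, 2 and 3 for the members, against -0.066, -0.10 and -0.088 for all genes.

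All 3 IP libraries lay above the Input for 32 members (39.0%), against 19.7% of all genes tested, and all 3 lay below it for 6 members (7.32%), against 24.1% of all genes. The 6 were Rpl5, Rpl21, Rplp2, Rps4x, Rps19 and Rps23, of which Rpl21, Rps19 and Rps23 are named after their values were seen. With library totals in place of TMM, 16 members (19.5%) lay above in all 3 and 18 (22%) below, against 12.1% and 34% of all genes. The subunits had like shares, with 19 of 48 large subunit genes and 13 of 34 small subunit genes above the Input in all 3 IP libraries.

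**Figure D1:**
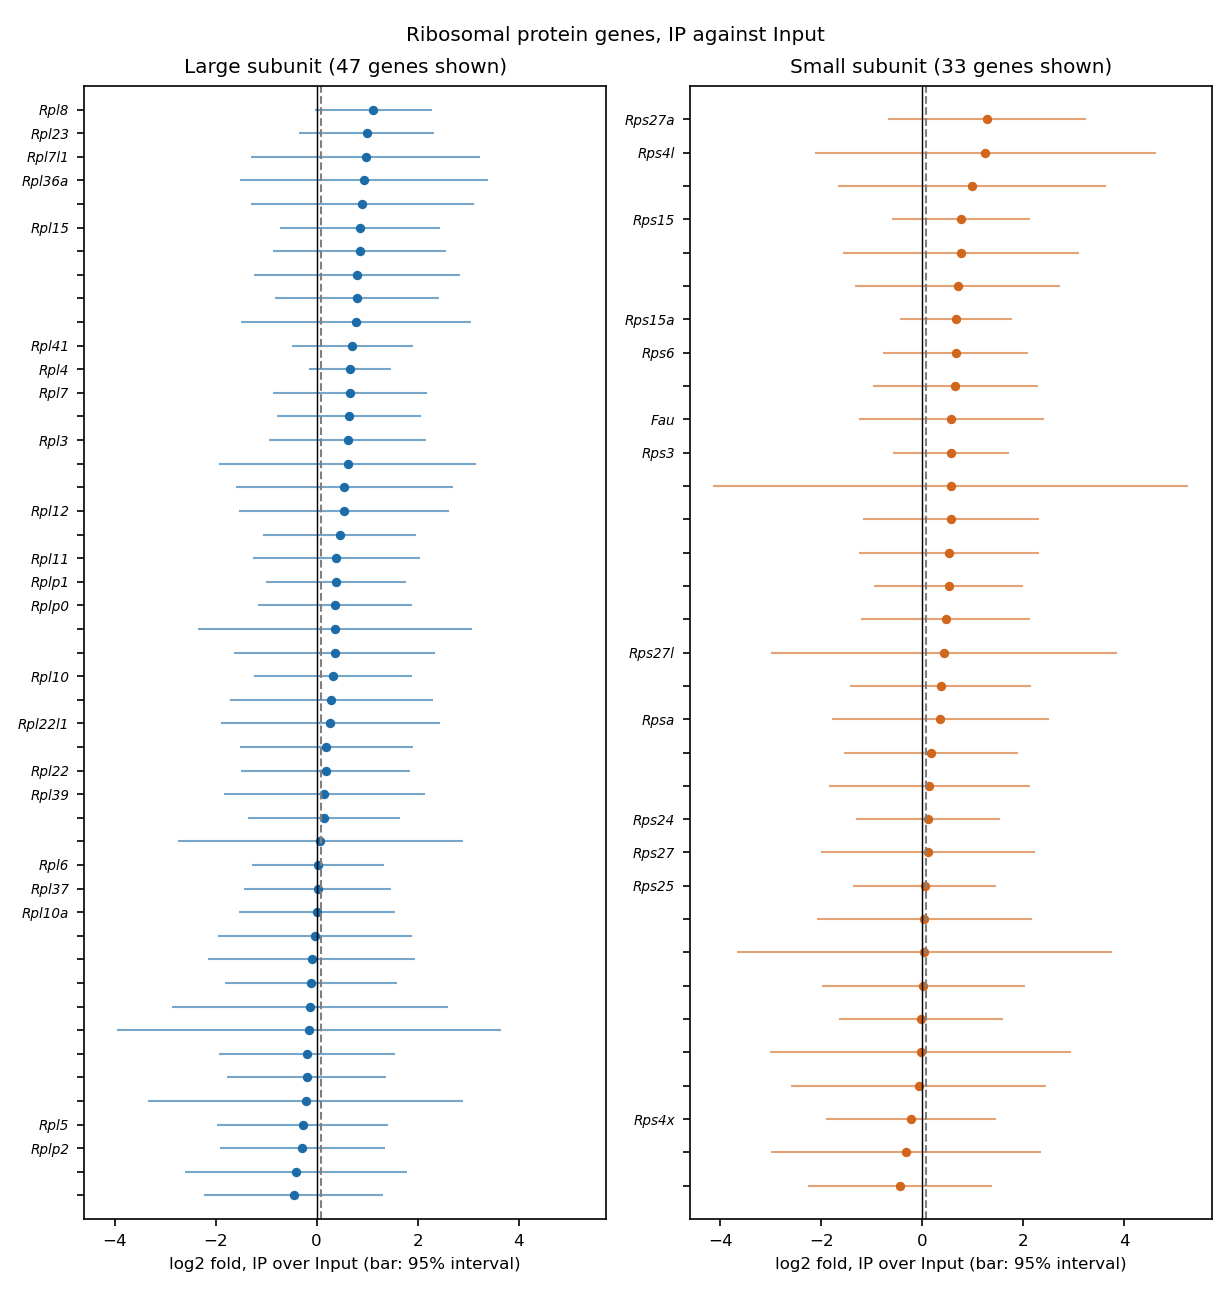
Log2 fold of IP over Input for 80 of the 82 genes, with its 95% interval from the edgeR fit, for the large subunit (left) and the small subunit (right). Labels mark the members named by the rule given with the processing, so some other genes in the text, such as Rpl21, carry none. The solid line marks 0 and the dashed line the median of all genes tested (0.083), and every interval covers 0.

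The spread of the folds was narrow next to that of other genes. A log2 fold within 1 of 0 was found for 79 of 82 members (96.3%), against 69.5% of all genes tested. Among genes with a mean of at least 5 CPM, 96.2% of 79 members and 81.3% of 10553 genes lay within that range. The SD of the log2 folds was 0.42 over those members and 0.92 over those genes. The genes were not matched to the members in level, on which this spread also depends. Single members were not measured closely. The SE of a member's log2 fold had a median of 0.84 and ran from 0.39 for Rpl4 to 2.25 for Rps13. All 82 intervals covered 0, and none lay wholly within a 2-fold change either way. For 19 members the interval left out a 2-fold fall, and for 0 it left out a 2-fold rise. With a lone Input, its own error was taken to be like that of the IP libraries.

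As a share of all counts, the 82 genes took 0.393%, 0.331% and 0.332% of IP 1, 2 and 3 (mean 0.352% ± 0.0358, SD, n = 3), against 0.317% of the Input. The exact 95% binomial interval of the Input share ran from 0.314% to 0.320%, and the lowest IP interval, that of IP 2, from 0.327% to 0.334%. These intervals cover counting error only. Each IP library was above the Input, and the mean of the IP libraries was 1.11 times the Input share. The ratio was 1.34 in TMM-scaled CPM, with summed levels of 4037, 3545 and 3480 CPM in IP 1, 2 and 3, against 2750 CPM in the Input. Without Rpl4 the shares were 0.345%, 0.290% and 0.282% in IP, against 0.281% in the Input, so that IP 3 and the Input had overlapping intervals.

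The balance of the subunits was close to that of the Input in 2 of the 3 IP libraries. Large subunit genes took 0.247%, 0.206% and 0.223% of counts in IP 1, 2 and 3, against 0.201% in the Input. Small subunit genes took 0.147%, 0.124% and 0.109% in IP, against 0.116% in the Input, with IP 3 below the Input. The summed counts of large subunit genes were 1.68, 1.66 and 2.04 times those of small subunit genes in IP 1, 2 and 3, against 1.74 times in the Input. IP 3 was thus the library furthest from the Input in this ratio, and it was also the one where Rpl4 took the largest part of the family's counts, 15.1%, against 12.2% and 12.4% in IP 1 and 2 and 11.2% in the Input.

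**Figure D2:**
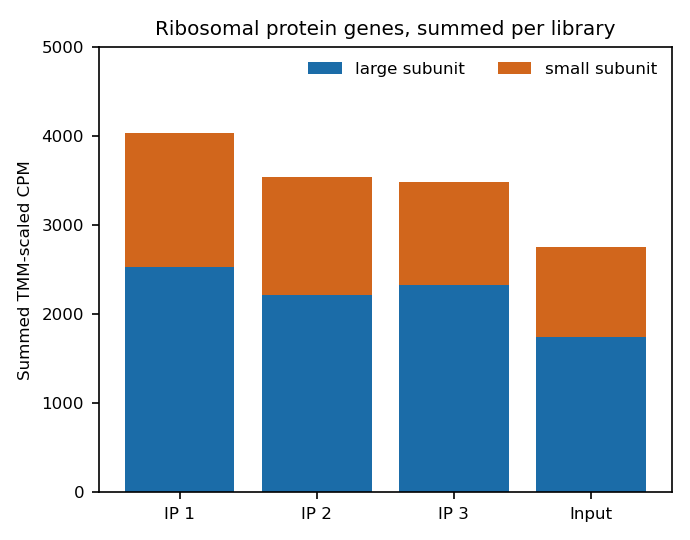
Summed TMM-scaled CPM of the 48 large subunit genes and the 34 small subunit genes, stacked, in the 3 IP libraries and the Input. The IP bars reach 4037, 3545 and 3480 CPM and the Input bar 2750 CPM.

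Members differed greatly in level. CPM in the Input ran from 1.80 (Rps13) to 307 (Rpl4), with a median of 28.2, and the median IP mean was 32.1. Per kilobase of transcript, the Input level ran from 3.05 to 199.7 CPM per kb with a median of 31.0. This scale rests on the transcript taken for each gene and on how reads of shared sequence were counted. The order of genes on it is therefore uncertain. Rpl4 (316 CPM per kb in IP, against 200 in the Input), Rpl41 (241 in IP, against 148) and Rplp1 (158 in IP, against 121) were highest on that scale in the Input.

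Rpl4, which lines the exit tunnel of the nascent chain, was the most abundant large subunit gene. It had 493, 439 and 525 CPM in IP 1, 2 and 3, against 307 CPM in the Input. Every IP library was above the Input, and the log2 fold was 0.66 ± 0.39 (SE, 95% interval -0.15 to 1.47, unadjusted p = 0.103). Rpl4 had the smallest error of all members, with 5123 counts in the Input.

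Rpl8, a core protein near the site where peptide bonds form, had 99.4, 212 and 170 CPM in IP 1, 2 and 3, against 73.8 CPM in the Input. All 3 were above the Input, and IP 1 was the closest to it. Its log2 fold of 1.12 ± 0.56 (interval -0.042 to 2.28) had the lowest unadjusted p of the family, 0.0579, with an adjusted p of 0.99995 by edgeR. It was the member under 0.05 in DESeq2 before adjustment, with a log2 fold of 1.13 and an adjusted p of 0.600. Without IP 1 its log2 fold was 1.35 (unadjusted p = 0.00875, adjusted p = 0.296 by edgeR).

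Rpl41, which encodes one of the shortest proteins known, had 99.3, 107 and 109 CPM in IP 1, 2 and 3, against 64.5 CPM in the Input. The IP libraries were nearly level and all above the Input (log2 fold 0.71 ± 0.57). Rpl23, which also binds Mdm2 when ribosome assembly fails, had 130, 79.0 and 74.6 CPM, against 47.5 CPM in the Input (log2 fold 0.99 ± 0.64), with IP 1 the highest. Rpl15, one of the genes mutated in the human disorder Diamond-Blackfan anaemia, had 89.8, 30.2 and 76.9 CPM, against 36.0 CPM in the Input. Its IP libraries lay on both sides of the Input, and its log2 fold was 0.87 ± 0.76.

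At the other end, among the large subunit genes with a mean of at least 50 CPM, Rpl37 and Rpl6 had folds near 0. That mean includes the IP libraries, and all 18 members with a fold below 0 lay under this limit. Rpl37 had 47.6, 56.1 and 47.7 CPM in IP 1, 2 and 3, against 49.7 CPM in the Input. Rpl6 had 72.3, 57.7 and 70.7 CPM, against 65.4 CPM. In both the Input lay within the range of the IP libraries, and the log2 folds were 0.021 and 0.033. The errors were wide here too, with lower 95% bounds of -1.44 for Rpl37 and -1.27 for Rpl6.

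Rpl10a, a protein of the L1 stalk, is the protein fused to EGFP in the TRAP method. It had 29.9, 50.5 and 64.2 CPM in IP 1, 2 and 3 (48.2 ± 17.3 CPM), against 47.8 CPM in the Input. The Input lay within the IP range, and the log2 fold was 0.012 ± 0.74 (interval -1.53 to 1.55). IP 1, the library with the most Vip class marker RNA, had the least Rpl10a. Of the 50-base stretches of its transcript 77.7% also occurred in another annotated gene, and whether reads of a tagged construct were counted here was not given in the sources used.

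The acidic stalk recruits the elongation factors, and its members had unlike estimates. Rplp0, the base of the stalk, had 43.1, 44.1 and 71.1 CPM in IP 1, 2 and 3, against 40.9 CPM in the Input (log2 fold 0.37 ± 0.73). Rplp1 had 123, 54.4 and 59.3 CPM, against 60.1 CPM (0.39 ± 0.66), and without IP 1 its log2 fold was -0.10. Rplp2 had 28.1, 34.1 and 37.2 CPM, against 40.2 CPM (-0.28 ± 0.78), with every IP library below the Input. Rpl12, beside the stalk base, had 30.8, 21.9 and 16.4 CPM, against 15.8 CPM (0.54 ± 0.99), with every IP library above the Input. None of these folds exceeded its error.

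Rpl5 and Rpl11 bind the 5S ribosomal RNA, and free of the ribosome this particle holds back Mdm2. Rpl5 had 37.0, 23.7 and 31.1 CPM in IP 1, 2 and 3, against 37.2 CPM in the Input (log2 fold -0.28 ± 0.81). Rpl11 had 53.8, 31.7 and 40.5 CPM, against 32.0 CPM (0.39 ± 0.79). The partners thus had estimates of opposite sign, with errors larger than either. Of the exon bases of Rpl5 46.6% lie in another annotated gene, and 93.8% of its 50-base stretches were shared.

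Among the small subunit genes, Rps15a had the highest level in CPM. It had 184, 131 and 111 CPM in IP 1, 2 and 3, against 89.4 CPM in the Input (log2 fold 0.67 ± 0.53, interval -0.43 to 1.77). Rps3, at the entry of the messenger RNA channel, had 95.4, 117 and 137 CPM, against 78.4 CPM (0.57 ± 0.55). In both genes all IP libraries were above the Input, and both were among the members with the least shared sequence on the transcript taken. For Rps15a that transcript had 5179 bases, of which 390 were coding. It still shared stretches with 64 other genes, 9 of them pseudogenes.

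Rps6, the small subunit protein phosphorylated by S6 kinase downstream of mTORC1, had 84.6, 77.9 and 44.2 CPM in IP 1, 2 and 3, against 43.7 CPM in the Input (log2 fold 0.66 ± 0.69). IP 3 was level with the Input and the others were well above it. Rps15, whose tail reaches the decoding site, had 50.8, 109 and 112 CPM, against 53.1 CPM (0.77 ± 0.65), and here IP 1 was the library below the Input. Rps25, needed by some viral internal entry sites, had 43.7, 62.6 and 64.2 CPM, against 55.0 CPM (0.046 ± 0.67), with the Input within the IP range. Another annotated gene covers 52.2% of the exon bases of Rps25.

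Rps24, also a Diamond-Blackfan anaemia gene, turned on a single library. It had 140, 54.9 and 45.3 CPM in IP 1, 2 and 3, against 73.7 CPM in the Input. IP 1 was above the Input and the others below it, and the log2 fold of 0.12 ± 0.68 was -0.58 without IP 1.

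Rpsa, known also as the laminin receptor precursor, had 16.8, 17.6 and 23.2 CPM in IP 1, 2 and 3, against 15.0 CPM in the Input (log2 fold 0.36 ± 1.03). Rps27a, made as a fusion with ubiquitin, had 38.1, 40.7 and 23.1 CPM, against 14.03 CPM (1.28 ± 0.93). Fau, made as a fusion with a ubiquitin-like protein, had 36.9, 33.5 and 26.6 CPM, against 21.7 CPM (0.57 ± 0.87). All 3 genes had every IP library above the Input. Rps27a, with the highest fold of the family, had an interval of -0.68 to 3.23, shared 72.0% of its 50-base stretches, and had 234 counts in the Input.

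**Figure D3:**
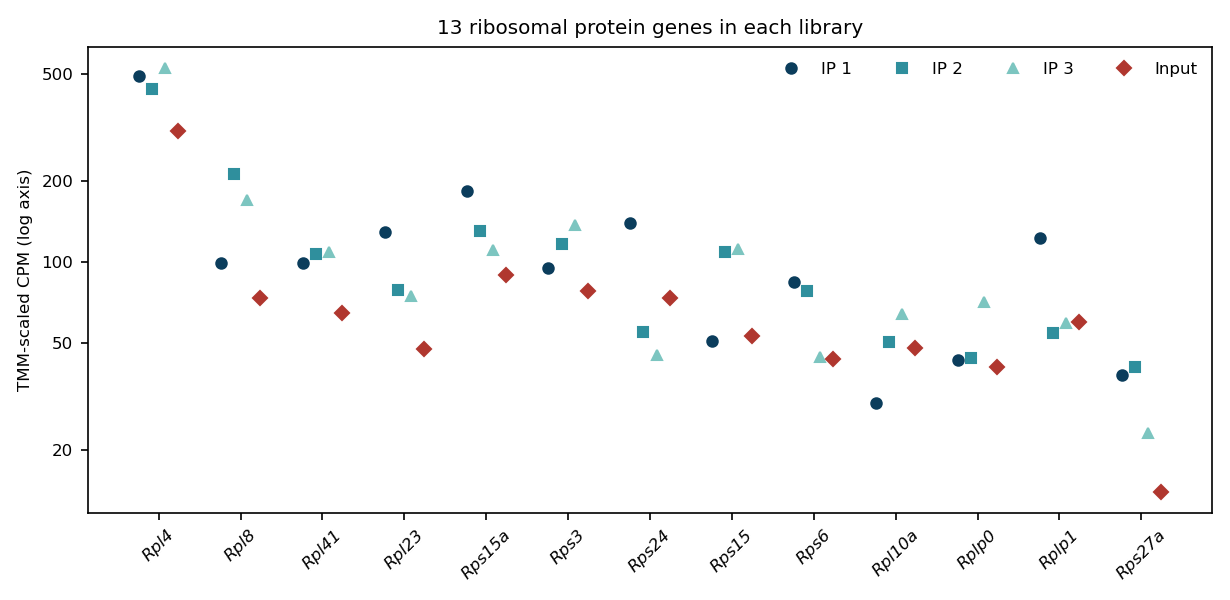
TMM-scaled CPM (log axis) of 13 members in IP 1, 2 and 3 and in the Input, in that order from left to right for each gene. Rpl4, Rpl8, Rpl23 and Rps27a have all IP points above the Input, whereas in Rpl10a, Rps24 and Rplp1 the Input lies among the IP points.

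The 4 X-linked members did not share a direction. Rps4x had 32.2, 35.6 and 25.4 CPM in IP 1, 2 and 3, against 36.3 CPM in the Input (log2 fold -0.22 ± 0.81). Rpl10 had 43.2, 48.9 and 46.1 CPM, against 36.7 CPM (0.33 ± 0.75). Rpl39 had 40.2, 16.04 and 18.7 CPM, against 22.5 CPM (0.15 ± 0.95, and -0.40 without IP 1). Rpl36a had 18.4, 23.0 and 9.74 CPM, against 8.93 CPM (0.93 ± 1.17). Rps4x was the one with every IP library below the Input.

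Mammals also carry paralogs of some ribosomal proteins, several of which are used in other tissues. Rpl10l and Rpl39l, best known from testis, had no counts in any library. A count of 0 allows up to 0.131, 0.321 and 0.259 CPM in IP 1, 2 and 3, and 0.180 CPM in the Input. Rpl3l, the paralog of heart and skeletal muscle, had 5 counts in IP 1 and 5 in the Input, whereas its parent Rpl3 had 91.9, 33.4 and 58.3 CPM in IP 1, 2 and 3, against 40.0 CPM in the Input (log2 fold 0.61 ± 0.74).

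Rpl7l1, Rpl22l1, Rps4l and Rps27l passed the limit, and 3 of these 4 were lower than their parents in the Input in CPM per kb of transcript. The transcript taken for Rps4l held no annotated coding part, so that its row stands for a protein is not shown here. Rpl7l1 had 25.4, 12.8 and 24.2 CPM in IP 1, 2 and 3, against 10.6 CPM in the Input (log2 fold 0.97 ± 1.08), while Rpl7 had 57.0, 77.0 and 41.6 CPM, against 37.1 CPM (0.66 ± 0.73). Per kb the levels in the Input were 4.07 CPM for Rpl7l1 and 31.9 CPM for Rpl7, 4.86 CPM for Rps4l and 37.2 CPM for Rps4x, and 9.80 CPM for Rps27l and 50.9 CPM for Rps27. Rpl22l1 had 21.4, 14.1 and 19.2 CPM in IP, against 15.1 CPM (0.27 ± 1.04), while Rpl22 had 61.0, 20.4 and 52.2 CPM, against 39.5 CPM (0.18 ± 0.80). This pair was the exception per kb of transcript, at 27.4 CPM for Rpl22l1 and 19.2 CPM for Rpl22 in the Input. That order rests on the transcript taken for each gene, of 552 bases for Rpl22l1 and 2051 bases for Rpl22. Per kb of coding sequence it turned round, with 41.3 CPM for Rpl22l1 and 103 CPM for Rpl22.

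Rps4l had 18.1, 5.67 and 3.54 CPM in IP 1, 2 and 3, against 3.84 CPM in the Input (log2 fold 1.25 ± 1.61), and Rps27l, known as a target of p53, had 5.67, 15.9 and 1.29 CPM, against 5.64 CPM (0.43 ± 1.63). Both were carried by single IP libraries, IP 1 for Rps4l and IP 2 for Rps27l, and they had the largest spread over the IP libraries of all members (SD of log2 CPM 1.14 and 1.60). The parent Rps27 had 13.9, 25.02 and 18.2 CPM in IP, against 17.6 CPM (0.11 ± 1.01). Rpl32l, named after its values were seen, also passed the limit, with 12.2, 6.52 and 9.48 CPM in IP 1, 2 and 3, against 10.3 CPM in the Input (log2 fold -0.13 ± 1.30). Per kb of transcript it had 25.9 CPM in the Input, and Rpl32 had 64.7 CPM. As for Rps4l, the transcript taken for Rpl32l held no annotated coding part.

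Ribosomal protein genes have left many processed copies in the genome, and reads that fit several places may be dropped or split. The annotation (GENCODE M21) was used to measure this. For 1 transcript per gene, the share of 50-base stretches that also occur in a transcript of another annotated gene had a median of 53.5%, and it was above 50% in 47 members. A pseudogene was among the genes sharing sequence for 81 of the 82. Besides, 17 members had exon bases inside another annotated gene. Levels and folds of the family are therefore uncertain wherever this share is high.

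The median fold was higher in the members with little shared sequence. The 12 members with at most 20% shared (among them Rpl4, Rpl8, Rpl22, Rpl39, Rps3, Rps15a and Rps24) had a median log2 fold of 0.61. All 12 lay above 0 with TMM factors and all 4 libraries. Rpl22, Rpl39 and Rps24 were below 0 with library totals (-0.088, -0.11 and -0.14) and without IP 1 (-0.14, -0.40 and -0.58). IP 1 was the highest IP library for 8 of the 12 (66.7%), against 54.9% of the members and 35.2% of all genes. The 35 members with over 20% to 60% had a median of 0.36 and the 35 with over 60% a median of 0.29, with 26 above 0 in each group. These limits were set after the data were seen, and the share rests on the transcript taken for each gene. Rps15a and Rpl22 had transcripts of 5179 and 2051 bases, with coding parts of 390 and 384 bases. Across the 82 genes, which are not independent replicates and share the same 4 libraries, the shared percentage had a Spearman correlation of -0.178 with the Input level per kb and -0.0989 with the log2 fold (Pearson -0.153 and -0.128). The difference between the groups thus came with no more than a weak correlation over the whole family.

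**Figure D4:**
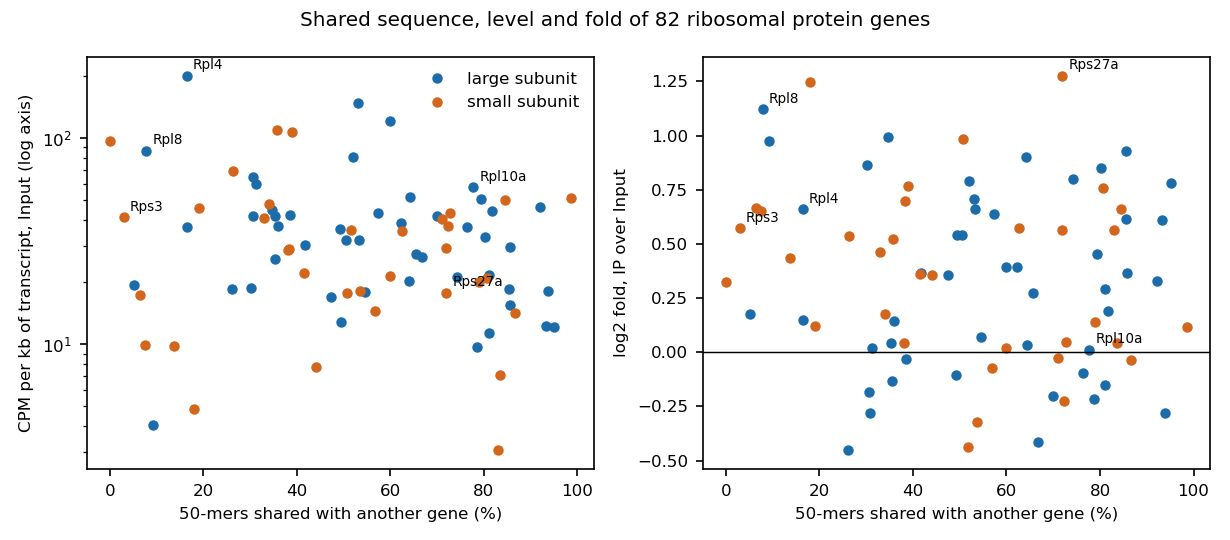
Percentage of 50-base stretches shared with another annotated gene against the Input level in CPM per kb (left, log axis) and against the log2 fold of IP over Input (right), with 1 point per member coloured by subunit. With TMM factors and all IP libraries, as drawn here, all members at or below 20% lie above 0 on the right. Above 20% the folds lie on both sides of 0.

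Many ribosomal protein genes host small nucleolar RNAs in their introns. The 30 members with such an RNA inside the gene had a median log2 fold of 0.24, and the 52 without had 0.41. The coding part of the members was short, with a median of 454.5 bases over 80 members, against 1434 bases over the tested genes with one. Rps4l and Rpl32l had no annotated coding part. With a trend of fold on coding length removed, the median fold of the members was 0.51 and that of all genes 0.16, so that the members stood 0.34 above all genes.

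IP 1 contributed more than the other IP libraries to the family's position. It was the highest IP library for 45 of the 82 members (54.9%), against 35.2% of all genes, and 7 members were over 2-fold higher in IP 1 than in both other IP libraries. These were Rplp1, Rpl39, Rps24, Rps4l and, named after their values were seen, Rps10, Rps13 and Rps26. Without IP 1 the median log2 fold of the members was 0.18, and their share of counts was 1.05 times that of the Input. IP 1 was also the deepest library, with the highest sum of Vip class markers and the lowest sums of excitatory and astrocyte markers given above, and their part in this result was not tested. The other members were highest in IP 2 (20 members) or IP 3 (17 members). IP 1 was the lowest of the IP libraries for many of these, among them Rpl8, Rpl10, Rpl10a, Rpl41, Rplp0, Rplp2, Rps3, Rps15 and Rps25. The SD of log2 CPM over the IP libraries had a median of 0.42 over the members, against 0.58 over the genes with a mean of at least 5 CPM.

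Other genes of the translation machinery, in 5 lists, had median log2 folds of 0.19 to 0.35, and 0 genes of any of these lists passed the test. The 23 other TOP messages tested had a median log2 fold of 0.35, with 18 above 0, against 7940 of the 14636 genes tested. All IP libraries were above the Input for 11 of them (47.8%), against 19.7% of all genes. Eef2, the factor that moves the ribosome along, had 431, 577 and 547 CPM in IP 1, 2 and 3, against 311 CPM in the Input (log2 fold 0.74 ± 0.39). Eef1a1, which brings aminoacyl-tRNA, had 393, 463 and 418 CPM, against 338 CPM (0.33 ± 0.38). In both, every IP library was above the Input. Nap1l1, a histone chaperone gene, had 329, 185 and 314 CPM, against 213 CPM (0.37 ± 0.45), with IP 2 below the Input. Rack1, the scaffold protein bound to the small subunit and named here after its values were seen, had 104, 171 and 117 CPM, against 65.2 CPM (1.002 ± 0.557), with every IP library above the Input.

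The 17 genes of mTORC1 and LARP1 control had a median log2 fold of 0.19, with 4 (23.5%) above the Input and 4 (23.5%) below it in all IP libraries, against 19.7% and 24.1% of all genes. Larp1, which binds the cap and tract of TOP messages, had 263, 342 and 317 CPM in IP 1, 2 and 3, against 146 CPM in the Input. All IP libraries were above the Input (log2 fold 1.07 ± 0.44, unadjusted p = 0.0242, adjusted p = 0.903 by edgeR). Cnbp, which binds nucleic acids, had 320, 148 and 226 CPM, against 259 CPM (-0.16 ± 0.46), with IP 2 and IP 3 below the Input. Mtor had 89.6, 150 and 192 CPM, against 96.1 CPM (0.58 ± 0.54), with IP 1 below the Input.

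The 43 ribosome biogenesis genes had a median log2 fold of 0.23, with 29 above 0. The nucleolar protein gene Ncl had 287, 299 and 381 CPM in IP 1, 2 and 3, against 234 CPM in the Input (log2 fold 0.46 ± 0.41). Rrp1, a processing factor of ribosomal RNA, had 130, 234 and 282 CPM, against 184 CPM (0.23 ± 0.48), with IP 1 below the Input. Nop58, a core protein of box C/D particles, had 113, 108 and 62.5 CPM, against 40.7 CPM (1.21 ± 0.65). In Ncl and Nop58 every IP library was above the Input.

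The 14 genes of ribosome rescue and dormancy had a median log2 fold of 0.34, with 13 above 0. Rnf14, a ubiquitin ligase that acts on stalled ribosomes, had 509, 452 and 408 CPM in IP 1, 2 and 3, against 399 CPM in the Input (log2 fold 0.19 ± 0.38). Serbp1, which occupies idle ribosomes, had 351, 309 and 366 CPM, against 229 CPM (0.58 ± 0.41). Habp4, a relative of Serbp1, had 211, 230 and 262 CPM, against 215 CPM (0.12 ± 0.42). The 76 mitochondrial ribosomal protein genes, whose products work in another compartment, had a median of 0.25, with 54 above 0. All IP libraries were above the Input for 15 (19.7%), equal to 19.7% of all genes. All were below it for 9 (11.8%), against 24.1% of all genes.

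**Figure D5:**
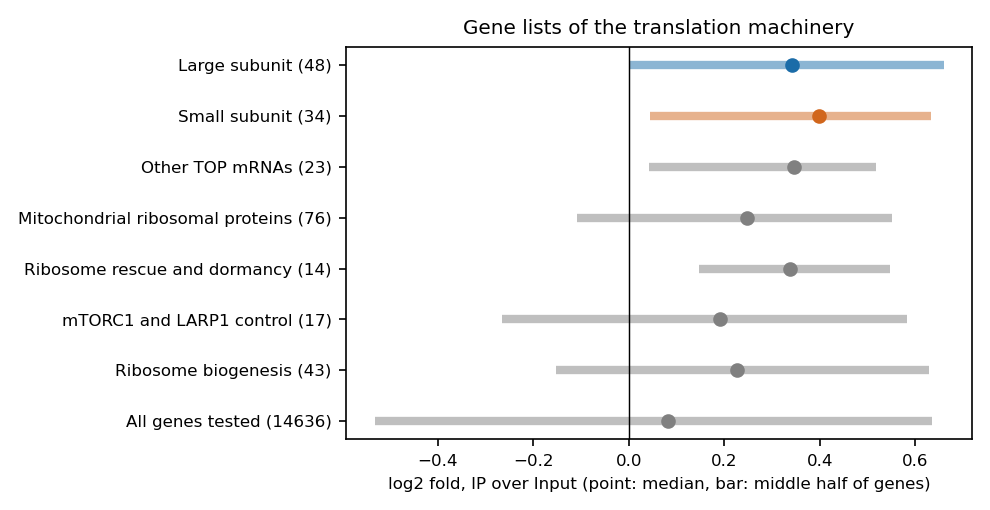
Median (point) and middle 50% (bar) of the log2 fold of IP over Input for the large and small subunit genes, 5 other lists of the translation machinery and all 14636 genes tested, with the number of genes in brackets. The medians of the lists run from 0.19 to 0.40, against 0.083 for all genes.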

How the data were processed

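Raw read counts per gene, 1 library per table with an Entrez identifier and a symbol, were deposited by the authors. The submitters' processing notes name STAR 2.0.0e, HTSeq and the build mm10. The table names also hold the word subread, so the counter is not settled. Strand and the treatment of reads with several matches are not given in the sources used here. Genes without a symbol took at most 0.0221% of a library.

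Counts of the 4 libraries were fitted in R 4.3.3 with edgeR 4.0.16 (filterByExpr with a minimum count of 10, TMM, quasi-likelihood F test, two-sided, Benjamini-Hochberg over 14636 genes, threshold 0.05). An SE is the log2 fold over the square root of F. The residual degrees of freedom were 2, all from IP, with a prior of 17.0. TMM factors were 0.974, 0.932 and 0.955 for IP 1, 2 and 3, and 1.15 for the Input. Library ratios used 0.5 CPM added. Alternatives used DESeq2 1.42.0, limma 3.58.1 with voom, other scalings and filters, and each IP library left out. The fitting code was run on simulated data with changes larger than any member's fold and less scatter than seen here. That run therefore does not show how well folds like those of the members are found.

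Gene positions, starts and windows came from RefSeq (GRCm38.p6), and transcripts from GENCODE M21 (GRCm38). The members and lists were chosen with earlier results of these data known. Members named were those of set roles, X-linked genes, paralogs with their parents, and per subunit the 3 most abundant and the 3 highest and 3 lowest folds among those with a mean of at least 50 CPM. Some genes under this rule are not reported here. Other lists name up to 3 of their most abundant genes, and genes outside this rule are marked or stand in counts of at most 6.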

Additional observations from a re-analysis of the deposited data

How the results depend on the processing

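The call of 0 members held in every alternative with a test. The median log2 fold stayed above 0 in each, and for members, large and small subunit it was 0.087, 0.067 and 0.12 with library totals, 0.14, 0.12 and 0.17 under upper-quartile factors, 0.64, 0.65 and 0.57 for members with a mean of at least 50 CPM over the 4 libraries, and 0.61, 0.66 and 0.57 for members with at most 20% shared stretches. That last alternative, TMM-scaled CPM for the summed ratio (1.34, against 1.11 from shares) and the sum without Rpl4 were chosen after seeing the data. The limit of 50 CPM was set on a mean of 3 IP libraries and 1 Input, so a high IP level itself helped a gene to pass. Rpl15, for one, passed with 36.0 CPM in the Input and an IP mean of 65.6 CPM. The higher median under that limit is thus partly set by the choice of genes. Leaving out each IP library gave medians of 0.18 to 0.42 for members, 0.17 to 0.40 for large and 0.21 to 0.43 for small subunit genes. Genes called over the whole table were 181 with DESeq2, 108 without a filter, 39 at an adjusted p under 0.01, and 90 to 210 with an IP library left out. Their split of higher to lower was 50 to 15 under library totals and 51 to 15 under upper-quartile factors.

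Named members changed sign in some alternatives, most of them with folds near 0 (Rps27l at 0.43 and Rplp1 at 0.39 were not), and the cause was not tested. With library totals the log2 folds were -0.25 (Rpl37), -0.24 (Rpl6), -0.23 (Rps25), -0.14 (Rps24), -0.27 (Rpl10a), -0.11 (Rpl39), -0.088 (Rpl22) and -0.16 (Rps27), and with upper-quartile factors -0.20, -0.18, -0.17, -0.092, -0.21, -0.060, -0.034 and -0.11 in the same order. With limma-voom they were -0.0031 (Rpl37), -0.041 (Rps25), -0.17 (Rpl10a), -0.23 (Rps27l) and -0.017 (Rps27), and at a mean of 5 CPM or more -0.086 (Rpl37), -0.074 (Rpl6), -0.061 (Rps25) and -0.095 (Rpl10a). Leaving out each IP library gave -0.063 to 0.060 (Rpl37), -0.048 to 0.13 (Rpl6), -0.052 to 0.18 (Rps25), -0.58 to 0.40 (Rps24), -0.25 to 0.24 (Rpl10a), -0.10 to 0.60 (Rplp1), -0.40 to 0.39 (Rpl39), -0.69 to 0.93 (Rps27l), -0.14 to 0.52 (Rpl22) and -0.13 to 0.28 (Rps27). No paired analysis was possible because there is 1 Input and it shares fewer than 2 replicate numbers with the IP libraries. Depth limits most the members with 30 to 94 counts in the Input (Rps13, Rps4l, Rps12, Rpl36 and Rps27l).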

Other observations

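Rows with other ribosomal protein symbols lay outside the rule. Rpl14-ps1, a row with a pseudogene symbol, had 1561, 347 and 600 counts in IP 1, 2 and 3, against 963 in the Input. Its parent Rpl14 had 46.9, 23.4 and 31.2 CPM in IP, against 36.5 CPM in the Input, and the pseudogene row had 68.0, 37.1 and 51.7 CPM, against 57.7 CPM, so it was above its parent in every library. Rpl37rt had 64.2, 63.1 and 51.3 CPM in IP, against 57.3 CPM in the Input, next to 47.6, 56.1 and 47.7 CPM, against 49.7 CPM, for Rpl37. Rps15a-ps6 had 15.6, 5.45 and 6.04 CPM in IP, against 6.24 CPM in the Input, with IP 1 the highest as for Rps15a. Rps19-ps3, Rps15a-ps4, Rpl31-ps12 and Rpl36al had at most 78 counts in any library, and Rplp2-ps1 had 0 in all 4.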
